A study of Mus musculus with 2 samples.

Results

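The genes described here are the nuclear-encoded subunits of the respiratory chain and of ATP synthase, compared between C3H10 cells depleted of MALAT1 and control cells. They were picked out by symbol, as the genes beginning with Nduf (without the Ndufaf assembly factors), Uqcr, Cox4 to Cox8 and Atp5, with pseudogene symbols left out. Earlier results of these data were known when this set of genes was chosen. Of 46095 genes in the count table, 81 matched, and 77 of these passed a filter of 10 counts in all (both libraries together), among 17356 genes that passed it. The tested genes comprised 37 of complex I, 8 of complex III, 15 of complex IV and 17 of ATP synthase (complex V). The 4 untested genes were Ndufa7, with 4 counts in the control library and 1 in the knockdown library, Cox6b2 with 1 and 0, Cox7b2 with 1 and 1, and Cox8c with 0 in both.

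C3H10 is a mouse mesenchymal cell line that forms adipocytes when induced. Both groups, ASO NC and ASO MALAT1, were transfected with an antisense oligonucleotide (ASO, a short strand that directs cleavage of the RNA it pairs with) at 100 nM, the former with a negative control and the latter with an ASO against the long non-coding RNA MALAT1. Both were induced with IBMX, dexamethasone, troglitazone and insulin for 2 days and then kept in insulin, and the study collected its ASO-treated cells at differentiation day 6. The labels give the strain as C57BL/6 and the cells as fibroblast precursors, and neither they nor the study say which of its MALAT1 ASOs the sequenced cells received. Each group was 1 library of 1 line, so there is no replicate spread, and every test below compares the reads of these libraries and not the conditions.

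Complexes I, III and IV pass electrons from NADH to oxygen and pump protons across the inner mitochondrial membrane, and ATP synthase uses the returning protons to make ATP. Each complex except complex II joins subunits encoded in the nucleus with a few encoded by mitochondrial DNA. Mitochondria multiply as preadipocytes turn into adipocytes, and brown adipocytes are particularly rich in respiratory chain.

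The libraries held 58147539 counts (ASO NC) and 61653549 counts (ASO MALAT1), on 21111 and 21143 genes. Library sizes were scaled by TMM, which assumes that most genes do not differ, and levels are given as CPM (counts scaled to a common library size). Malat1 itself had 170402 counts in the control library and 45396 in the knockdown library, which left 24.7% of the control level. The 12 mature adipocyte markers were all lower in the knockdown library, with summed levels of 7396 CPM (ASO NC) and 3310 CPM (ASO MALAT1) and a median log2 fold change of -1.23. The 11 measured fibroblast and preadipocyte markers summed to 19151 CPM and 20873 CPM with a median of 0.15, and the twelfth, Dlk1, was at 0 in both libraries. The log2 fold change was above 0 for 8 of the 11 and below 0 for 3, among them Dcn (-0.88) and Lum (-0.99). Of 15 leukocyte, endothelial, muscle and epithelial markers, 3 reached 10 counts (Cd68, Pecam1 and Cdh1), and Ptprc, Cd52, Adgre1, Myod1, Myog, Acta1 and Epcam were at 0 in both libraries. These adipocyte markers moved in the same direction as the respiratory chain genes below, and their part in the result was not tested. In bulk RNA, fewer adipocytes in the dish and less of a transcript in each adipocyte cannot be told apart.

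The respiratory chain and ATP synthase genes were lower in the knockdown library almost without exception, by a moderate amount. The log2 ratio of ASO MALAT1 to ASO NC was below 0 for 76 of 77 genes, against 50.4% of all tested genes and 46.9% of the tested genes with a mean of at least 1000 counts. The median log2 fold change was -0.35 (interquartile range -0.45 to -0.23), which is 78.6% of the control level, against a median of -0.003 over all tested genes. The summed level of all members was 10741 CPM in ASO NC and 8377 CPM in ASO MALAT1, a log2 ratio of -0.36 (95% counting interval -0.36 to -0.35). Atp5b alone contributed 2236 CPM and 1669 CPM to these sums. The plot of log2 fold changes by complex shows the members packed between the line of no change and a log2 fold change of about -0.6.

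**Figure D1:**
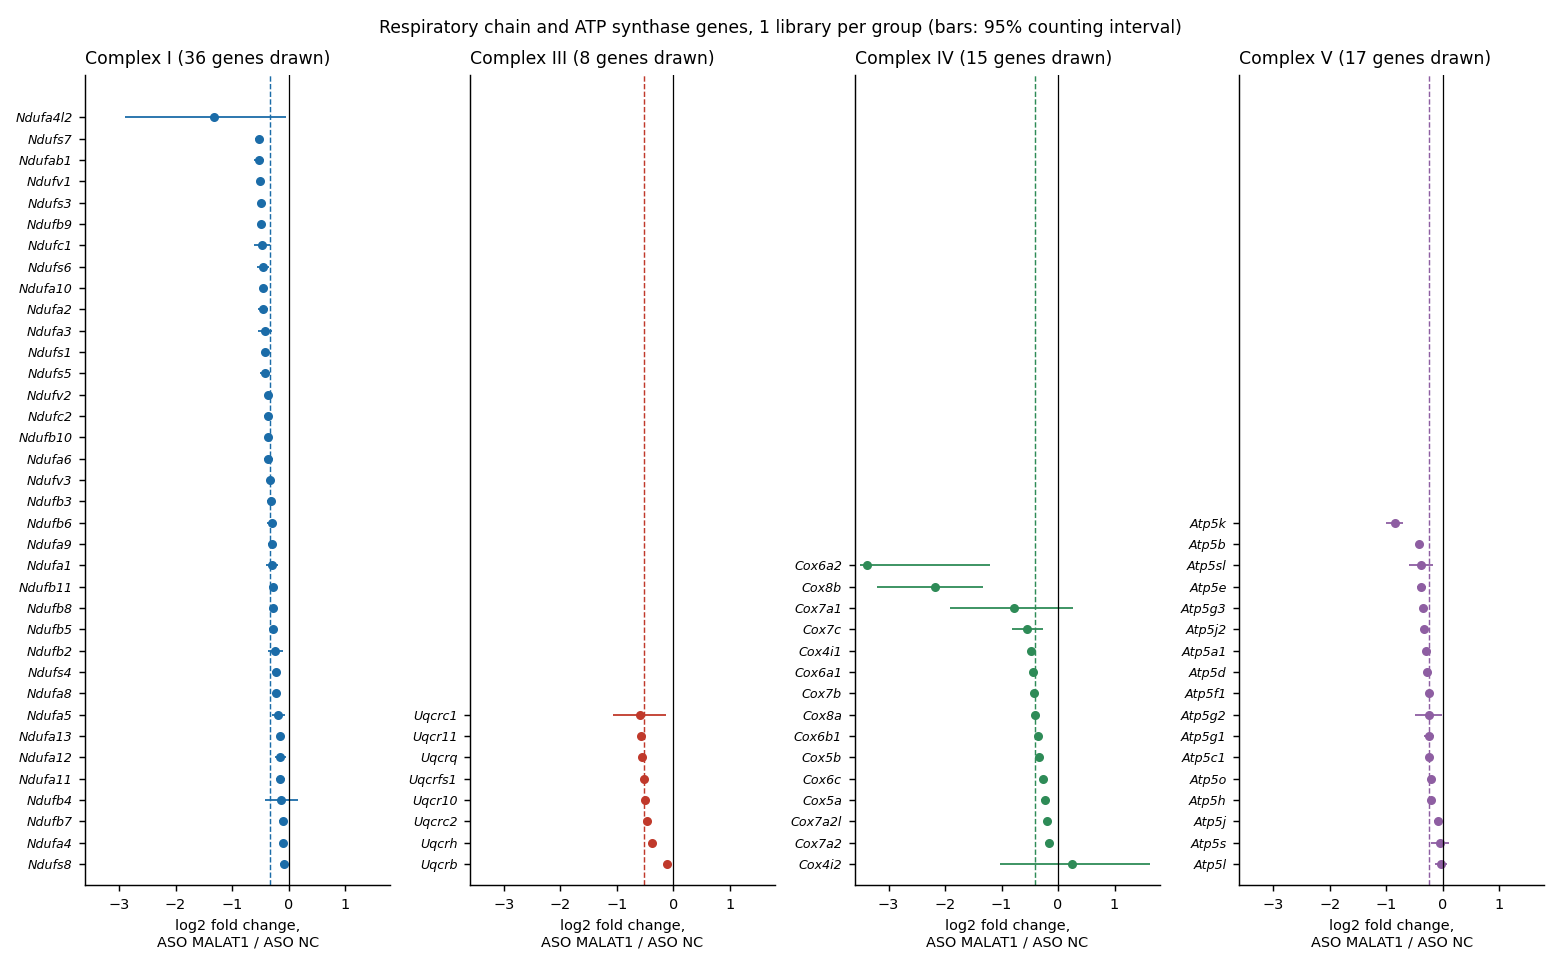
Log2 fold change of 76 of the 77 tested members (ASO MALAT1 over ASO NC, x axis; 1 member of complex I is not drawn), ordered within complexes I, III, IV and V. Points are single values from 1 library per group, bars are 95% intervals that cover counting error only (that of Cox6a2 runs beyond the left edge, to -9.32), the solid line marks no change and the dashed line the median of all tested members of the complex, which was -0.34, -0.51, -0.41 and -0.25 in that order.

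A gene was called lower or higher when its adjusted p was under 0.05 by the two-sided exact binomial test (Benjamini-Hochberg adjustment over all 17356 tested genes) and its fold change reached a stated size. At 1.2-fold, 50 of the 77 genes (64.9%) were called lower, against 13.9% of all tested genes. None was called higher at 1.2-fold, where 10.9% of all tested genes were. Among genes with a mean of at least 1000 counts, 43 of 63 members (68.3%) were called lower at 1.2-fold, against 10.9% of all genes that abundant. Few members were called at larger folds. At 1.5-fold, 4 members were called lower (Cox6a2, Cox8b, Atp5k and Uqcrc1) and 0 higher, against backgrounds of 7.27% and 4.37%. At 2-fold only Cox6a2 and Cox8b were called lower and 0 were called higher, against 4.09% and 2.18%.

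These calls rest on counting error alone. With edgeR's exact test and an assumed coefficient of variation between cultures of 0.1, 3 of the 77 members were called at 1.2-fold lower, namely Atp5k, Cox6a2 and Cox8b, against 4.08% of all tested genes. With 0.2 only Cox8b was called (background 0.547%), and with 0.4 no member and no other gene was called lower (background 0%). The abundant members lay close together, as the plot against mean count shows. The SD of the log2 fold change over the 63 members with a mean of at least 1000 counts was 0.14, against 0.26 over all 8251 genes that abundant. Their intervals still separated them, since 19 lay wholly below the median of all members, 25 wholly above it and 19 spanned it.

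**Figure D2:**
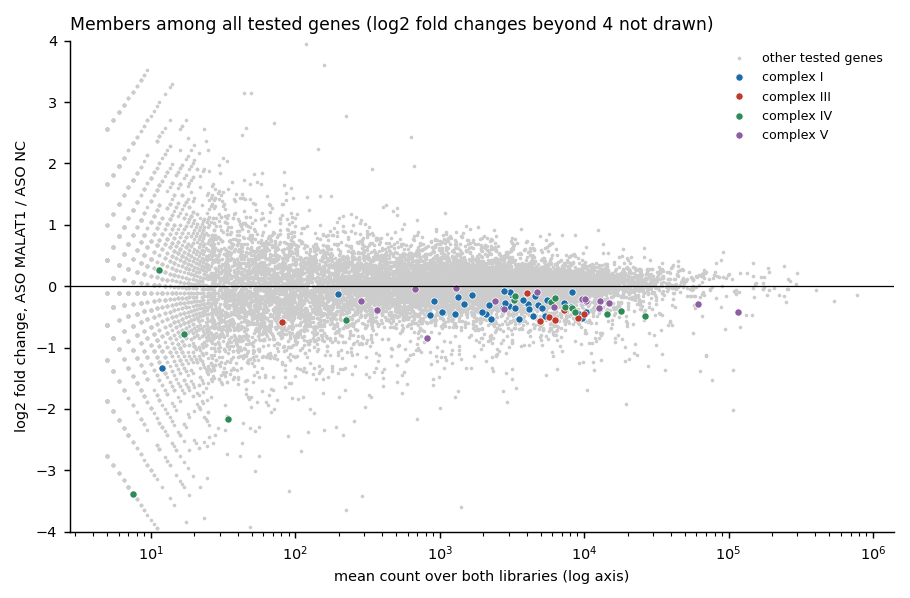
Log2 fold change (ASO MALAT1 over ASO NC, y axis) against the mean count over both libraries (x axis, log scale) for all tested genes, with 76 of the 77 members coloured by complex. Most members sit just under 0 at mean counts above 1000, and the 2 members called at 2-fold, Cox6a2 and Cox8b, have fewer than 100 counts.

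Promoters of 4 members are printed as examples of upstream regions that hold a motif match. They were picked for holding a match, so the matches in them are not a result about the members. The choice of members by symbol did not use promoter sequence. Promoters of 64 of the 77 tested members were found in RefSeq (GRCm38.p6), as 69 entries, and each entry, which runs from 250 bases before the start to 50 bases after it, was searched on both strands for exact matches to motifs of factors known to act on respiratory genes. These were GCGCATGC for NRF1, CCGGAAGT for GABPA, AAGATGGC for YY1, TCAAGGTCA for the oestrogen-related receptors (ERR) and GGGGCGGG for SP1. The printed sequences are the 250 bases before the start, 5′ to 3′ on the strand of the gene, with motif matches that lie wholly within them in capitals. A promoter was taken from each complex after the values were seen, as the lowest member with a mean of at least 1000 counts that held an NRF1, GABPA or YY1 match wholly within those 250 bases. Ndufa6 (complex I, minus strand, chr15:82354292-82354541) held an NRF1 match on the reverse strand, beginning 83 bases before the start. Uqcr11 (complex III, minus strand, chr10:80406822-80407071) held a GABPA match 66 bases before it. Cox6a1 (complex IV, minus strand, chr5:115348959-115349208) held overlapping NRF1 matches on both strands, 162 and 160 bases before the start, and an SP1 match at 45. Atp5h (ATP synthase, minus strand, chr11:115419920-115420169) held a GABPA match on the reverse strand at 39.
Ndufa6: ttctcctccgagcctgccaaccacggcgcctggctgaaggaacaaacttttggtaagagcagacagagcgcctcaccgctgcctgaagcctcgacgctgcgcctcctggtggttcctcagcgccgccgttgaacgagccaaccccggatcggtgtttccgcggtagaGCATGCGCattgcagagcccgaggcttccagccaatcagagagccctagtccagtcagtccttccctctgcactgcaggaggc
Uqcr11: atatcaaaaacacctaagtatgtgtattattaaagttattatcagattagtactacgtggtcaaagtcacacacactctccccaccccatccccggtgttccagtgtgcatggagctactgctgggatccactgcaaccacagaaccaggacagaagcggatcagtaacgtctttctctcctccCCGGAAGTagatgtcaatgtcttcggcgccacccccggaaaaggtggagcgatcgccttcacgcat
Cox6a1: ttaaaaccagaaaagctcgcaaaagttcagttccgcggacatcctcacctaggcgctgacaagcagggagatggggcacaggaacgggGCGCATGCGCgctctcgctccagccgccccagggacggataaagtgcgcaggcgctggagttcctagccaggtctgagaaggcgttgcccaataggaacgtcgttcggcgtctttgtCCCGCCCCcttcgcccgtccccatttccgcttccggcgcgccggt
Atp5h: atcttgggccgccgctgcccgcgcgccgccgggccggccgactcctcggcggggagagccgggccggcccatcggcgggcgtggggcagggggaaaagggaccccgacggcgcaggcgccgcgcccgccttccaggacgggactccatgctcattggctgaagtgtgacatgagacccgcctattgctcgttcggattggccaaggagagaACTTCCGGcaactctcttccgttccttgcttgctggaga

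Of the 69 member promoters, 17.4% held the YY1 motif against 2.75% of all 32851 promoters, and 13% held the NRF1 motif against 2.71%. The 32851 promoters were not limited to genes tested here or matched to the members in level. The gap therefore need not be particular to respiratory chain genes. The YY1 matches lay mostly at or after the start, with 10 of the 12 member promoters matching only there, and within the 250 bases before it the shares were 2.90% of member promoters and 1.56% of all promoters. For NRF1 they were 10.1% and 2.26% there, and for GABPA 4.35% and 2.88%. Over the whole entries, the shares for GABPA were 7.25% and 3.89%, for SP1 23.2% and 16.5%, and for ERR 1.45% (Atp5g3 alone) and 0.423%. The medians of members with and without a motif lay within the spread of the members. The median log2 fold change was -0.36 for the 9 members with the NRF1 motif and -0.33 for the others, -0.34 and -0.33 with and without the YY1 motif, and -0.41 and -0.32 with and without the GABPA motif. A match is a string of letters and not a binding site, and no binding was measured here.

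**Figure D3:**
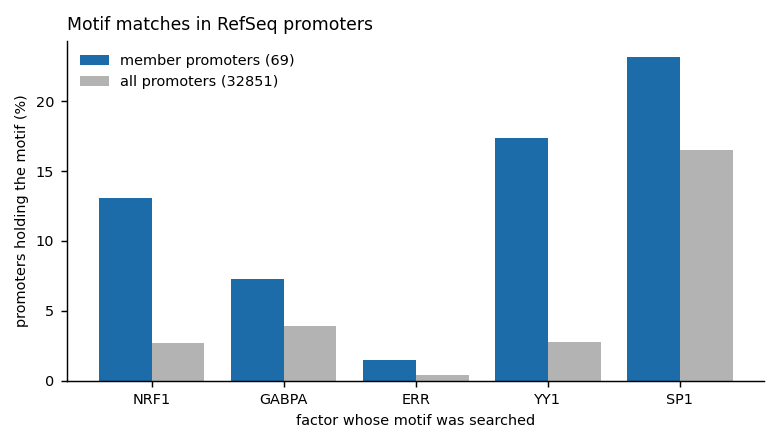
Share of promoters (y axis, percent) holding each of 5 motifs between 250 bases before the start and 50 bases after it, for the 69 promoters of tested members (blue) and for all 32851 RefSeq promoters (grey). The bars of NRF1 and YY1 differ most, at 13% against 2.71% and 17.4% against 2.75%.

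Complex I takes electrons from NADH, and all 37 of its tested genes had a ratio below 0. At 1.2-fold, 25 were called lower, against 13.9% of all tested genes. The median log2 fold change was -0.34, and the summed level was 2858 CPM in the control and 2254 CPM in the knockdown library. The conserved core subunits carry the flavin and the iron-sulfur clusters. Of the 6 reported here, 5 were called lower at 1.2-fold, and the median log2 fold change of the 6 was -0.45. Ndufv1, which binds NADH, had 11068 counts in the control library and 8347 in the knockdown library (log2 fold change -0.51, 95% interval -0.55 to -0.47). Ndufv2, its iron-sulfur partner, had 4498 and 3762 counts (-0.36, -0.43 to -0.30). Ndufs1, the largest subunit, had 11407 and 9186 counts (-0.42, -0.46 to -0.38). These genes of the electron-accepting tip were all called lower at 1.2-fold. Ndufs7, which lies near the site where ubiquinone is reduced, had 4063 and 3025 counts (-0.53, -0.60 to -0.46). Ndufs3, a subunit of the same arm, had 4990 and 3844 counts (-0.48, -0.54 to -0.42). Ndufs8, which carries iron-sulfur clusters between that arm and the quinone site, was the core gene reported here that was not called, with 2764 and 2811 counts (-0.08, -0.16 to -0.01, adjusted p = 0.0683 by the exact binomial test).

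The accessory subunits of complex I surround the core, and all 30 tested had a ratio below 0, with a median log2 fold change of -0.30. At 1.2-fold, 19 of the 30 were called lower, against 13.9% of all tested genes. By symbol family, 7 of 14 Ndufa genes, 7 of 10 Ndufb genes and both Ndufc genes were called lower, with medians of -0.29, -0.28 and -0.42. Ndufab1, the mitochondrial acyl carrier protein, was the lowest accessory gene with over 100 counts, at 2610 and 1946 counts (-0.53, -0.62 to -0.44). The other end of the range was close to no change. Ndufa4, named for complex I but since placed in complex IV, had 8162 and 8243 counts (-0.09, -0.14 to -0.05). Ndufb7, a membrane-arm subunit, had 3070 and 3094 counts (-0.10, -0.17 to -0.02). Because the knockdown library was deeper, counts that were nearly equal in both libraries gave ratios a little below 0. Ndufb4, with 199 and 196 counts, had an interval that spanned 0 (-0.13, -0.42 to 0.16).

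Complex III passes electrons from ubiquinol to cytochrome c and had the lowest median of the complexes, at -0.51. At 1.2-fold, 7 of its 8 genes were called lower, against 13.9% of all tested genes. Its summed level was 923 CPM in the control and 672 CPM in the knockdown library, which is 72.8% of the control. Uqcrfs1, the Rieske iron-sulfur protein that takes the first electron from ubiquinol, had 10436 and 7803 counts (-0.53, -0.57 to -0.48). Uqcrc2, a core protein of the matrix side, had 11232 and 8805 counts (-0.46, -0.50 to -0.42). Its partner core protein, Uqcrc1, had 95 and 68 counts (-0.59, -1.06 to -0.12), so that its fold change is much less certain. Its level was low in both libraries, and it depends on how reads were assigned to genes, which the sources used here do not give. Among the small subunits, Uqcr11 had 5763 and 4188 counts (-0.57, -0.62 to -0.51) and Uqcrq 7306 and 5349 (-0.56, -0.61 to -0.51). Uqcrh, the hinge protein that docks cytochrome c1, had 7944 and 6556 counts (-0.38, -0.43 to -0.34). The complex was thus lower in core and small subunits alike. Uqcrb was the exception, with 4045 and 4038 counts (-0.11, -0.17 to -0.05), and it has 3 near-identical copies elsewhere in the annotation, so its reads may have been shared with them.

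Complex IV, cytochrome c oxidase, reduces oxygen to water. Of its subunit genes, 10 are expressed in most tissues, and all 10 had a ratio below 0, with a median log2 fold change of -0.38. At 1.2-fold, 8 of these 10 were called lower, against 13.9% of all tested genes. Cox4i1, which binds ATP and adjusts the enzyme's rate, had 29868 and 22995 counts (-0.48, -0.51 to -0.46). Cox6a1 had 16142 and 12728 counts (-0.45, -0.48 to -0.42) and Cox8a, the smallest subunit, 19844 and 16076 (-0.41, -0.44 to -0.38). Cox7c was lower with fewer counts, at 259 and 191 (-0.54, -0.82 to -0.27), and the same limit holds for its level. These genes, apart from Cox7c, were among the most abundant members. Cox5a and Cox7a2 did not reach 1.2-fold, with 3396 and 3129 counts (-0.22, -0.30 to -0.15) and 3416 and 3273 counts (-0.17, -0.24 to -0.10). Cox7a2l, which joins complexes III and IV into supercomplexes and is no subunit of the enzyme alone, had 6501 and 6102 counts (-0.20, -0.25 to -0.15). Cox6c had 6255 and 5611 counts and stood at the 1.2-fold threshold with a log2 fold change of -0.26, and it lost its call under each other scaling tried.

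The tissue-restricted isoforms of complex IV held the largest fold changes and the fewest counts. Cox8b, the isoform of heart, skeletal muscle and brown fat, had 56 counts in the control library and 13 in the knockdown library (-2.17, -3.21 to -1.32). Cox6a2, an isoform of the same tissues, had 14 counts and 1 count (-3.38, -9.32 to -1.20). Both were called at 2-fold lower (adjusted p = 1.73e-07 and 0.0018 by the exact binomial test). Cox7a1, also of muscle and brown fat, had 21 and 13 counts (-0.78, -1.92 to 0.27), and Cox4i2, the isoform of lung and smooth muscle, had 10 and 13 (0.26, -1.03 to 1.62). The intervals of these last 2 genes spanned 0. Ndufa4l2, the hypoxia-responsive relative of Ndufa4, had 17 and 7 counts (-1.33, -2.90 to -0.04, adjusted p = 0.0812 by the exact binomial test).

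These isoforms contributed next to nothing to their subunits in either library, as the plot of paired isoforms shows. Cox8b made up 0.281% of the Cox8 counts in the control library (Clopper-Pearson 95% interval 0.213 to 0.365%) and 0.0808% in the knockdown library (0.0430 to 0.138%), intervals that do not overlap. Per kilobase of transcript, Cox8b stood at 2.70 CPM and 0.581 CPM, and Cox8a at 625 CPM and 470 CPM. Cox6a2 made up 0.0867% of the Cox6a counts (0.0474 to 0.145%) and 0.00786% (0.000199 to 0.0438%). The intervals of the Cox7a1 share overlapped, at 0.611% (0.379 to 0.932%) and 0.396% (0.211 to 0.676%). Of the 5 measured brown adipocyte markers, which include Cox8b, 4 were called lower and 1 higher at 1.2-fold, against 13.9% and 10.9% of all tested genes. Those with the most counts were Dio2, with 299 and 241 (-0.42, -0.67 to -0.17), and Ppargc1a, the marker called higher, with 107 and 158 (0.45, 0.09 to 0.82). Cidea had 40 and 4 counts and Elovl3 37 and 6, whereas Ucp1, the uncoupling protein that defines brown fat, had 1 count in each library. Whether these movements are related was not tested.

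**Figure D4:**
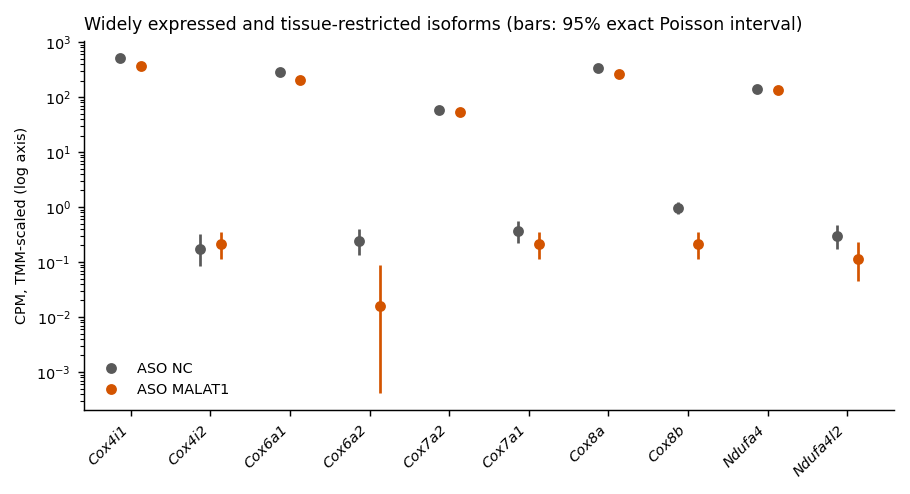
Level of widely expressed and tissue-restricted isoforms (y axis, CPM on a log scale) in the ASO NC library (grey) and the ASO MALAT1 library (orange), with exact Poisson 95% intervals. The restricted isoforms Cox4i2, Cox6a2, Cox7a1, Cox8b and Ndufa4l2 lie below 1 CPM in both libraries, while Cox4i1, Cox6a1, Cox7a2, Cox8a and Ndufa4 lie above 50.

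ATP synthase was the complex with the smallest median, -0.25, and 8 of its 17 genes were called lower at 1.2-fold, against 13.9% of all tested genes. It also had the largest summed level, with 5015 CPM in the control and 3969 CPM in the knockdown library. This sum is not adjusted for transcript length or for the number of genes. The catalytic F1 head showed 4 of 5 genes called lower. Atp5b, the catalytic beta subunit, had 129028 and 103671 counts (-0.42, -0.43 to -0.41), and Atp5a1, the alpha subunit that alternates with it in the ring, had 65489 and 57670 (-0.29, -0.31 to -0.27). Their intervals do not overlap, although the protein subunits are present in equal number. Of the central stalk, Atp5d had 15716 and 13921 counts (-0.28, -0.31 to -0.25), Atp5e 3036 and 2517 (-0.38, -0.45 to -0.30) and Atp5c1, the rotating shaft, 13501 and 12360 (-0.23, -0.27 to -0.20). Atp5c1 was the F1 gene that did not reach 1.2-fold.

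The peripheral stalk holds the head still while the shaft turns, and none of its 4 genes reached 1.2-fold. With 13.9% of all tested genes called lower, so few genes can hardly be told from that share. Atp5f1, Atp5h and Atp5o had log2 fold changes of -0.25, -0.21 and -0.21, and Atp5j stood at -0.09 with 4705 and 4756 counts (interval -0.15 to -0.03). The proton-carrying c ring is built from identical mature proteins encoded by Atp5g1, Atp5g2 and Atp5g3. Atp5g3 was called lower at 1.2-fold, with 13766 and 11643 counts (-0.35, -0.38 to -0.31). Atp5g1 had 2542 and 2314 counts (-0.24, -0.32 to -0.16) and Atp5g2 301 and 273 (-0.25, -0.49 to -0.01). The mixture of the 3 genes hardly moved, with Atp5g3 at 82.9% of the c-subunit counts in the control library and 81.8% in the knockdown library. Per kilobase its share was 95.30% and 94.97%, which rests on a longest Atp5g1 transcript of 4715 bases against 723 for Atp5g3. If a shorter Atp5g1 form is used, the Atp5g3 share per kilobase is overstated.

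Atp5k, the small membrane subunit e that helps ATP synthase form dimers, was the lowest member with over 100 counts. It had 1018 counts in the control library and 609 in the knockdown library (-0.85, -0.995 to -0.701), which is 55.6% of the control level. Its partner in the dimer, Atp5l (subunit g), had 1264 and 1334 counts (-0.03, -0.14 to 0.08), an interval that spanned 0. Both symbols have near-identical copies in the annotation, 1 for Atp5k and 9 for Atp5l, so reads may have been divided between gene and copies. Atp5j2, the f subunit of the same membrane part, had 6635 and 5653 counts (-0.34, -0.39 to -0.29). The remaining genes carry the prefix without being structural subunits. Atp5s, a coupling factor, had 663 and 689 counts (-0.05, -0.21 to 0.10), and Atp5sl, an assembly factor of complex I, had 408 and 335 (-0.39, -0.60 to -0.18).

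Levels between genes can be compared only per length of transcript. The median level per kilobase in the control library was 64.8 CPM for complex I, 132 CPM for complex III, 99.8 CPM for complex IV and 118 CPM for the 16 ATP synthase genes with a known length. In the knockdown library these medians were 52.2, 107, 87.0 and 95.8 CPM. The complex IV median includes 4 tissue-restricted isoforms, at 2.70 CPM per kilobase or less in both libraries, which lower it. These medians therefore do not rank the widely expressed subunits of complex IV against the other complexes. Atp5b was the most abundant member at 1167 CPM per kilobase in the control and 871 in the knockdown library, and Cox4i1 led complex IV at 677 and 484. At the low end, Uqcrc1 stood at 0.996 and 0.662 CPM per kilobase, although its protein is an obligatory part of complex III. Near-identical copies (at least 95% identity over 200 bases) were found for 20 tested members, of which 11 were called lower at 1.2-fold. Of the 57 members without copies, 39 were, against 13.9% of all tested genes.

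The rest of the pathway was measured with lists of the nuclear partners and of the mitochondrial genes. At 1.2-fold, 13.9% of all tested genes were called lower and 10.9% higher, the shares to set beside the counts below. Complex II, which feeds electrons from succinate, had 3 of 4 genes called lower, with Sdha, its flavoprotein, at 28642 and 23100 counts (-0.42, -0.44 to -0.39). Cyc1 and Cycs, the cytochromes c1 and c, were both called lower at 1.2-fold, with 9347 and 7370 counts (-0.45, -0.49 to -0.41) and 1263 and 1089 (-0.32, -0.44 to -0.20). The remaining electron carriers were thus lower by amounts within the range of the members. Of 45 tested assembly factors, 15 were called lower and 0 higher, with a median log2 fold change of -0.17. Cox14, which guards newly made Cox1 protein, had 5199 and 4515 counts (-0.31, -0.37 to -0.25). Coa5, another factor for complex IV, had 5941 and 6036 counts and did not reach 1.2-fold (-0.08, -0.14 to -0.03).

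The 13 subunits encoded by mitochondrial DNA lay closer to no change. Their counts were very uneven, from 22 and 18 (ND3) to 784815 and 763826 (COX1), and depend on how reads were assigned to genes. Among those with many counts, ND1 and ND4 had log2 fold changes of -0.15 and -0.17, and ND5 and ND2 of -0.07 and 0.15. Of the 13, 0 were called lower and 2 higher at 1.2-fold, against 13.9% and 10.9% of all tested genes, so the count called higher is near the background. The median log2 fold change was -0.06 and the summed log2 ratio -0.12 (-0.12 to -0.11). COX1, the catalytic subunit of complex IV, had 784815 and 763826 counts (-0.15, -0.15 to -0.14), and CYTB, the cytochrome b of complex III, had 226642 and 221924 (-0.14, -0.15 to -0.13). The 2 genes called higher were ND6, with 877 and 1189 counts (0.33, 0.21 to 0.46), and ATP8, with 40 and 91 counts (1.07, 0.53 to 1.65), both named after their values were seen. The interval of the summed ratio of the nuclear members, -0.36 to -0.35, does not overlap that of the mitochondrial genes, and both cover counting error only.

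Of 12 genes of mitochondrial import and the outer membrane, 11 had a ratio below 0, and the intervals of 10 lay wholly below 0. At 1.2-fold, 4 were called lower and 0 higher, with a median of -0.19. The shares over all tested genes were 13.9% and 10.9%. Hspa9, the chaperone that pulls proteins into the matrix, had 45665 and 32975 counts (-0.58, -0.60 to -0.56). Hspd1 and Vdac1 had log2 fold changes of -0.32 and -0.27. Vdac2, a channel of the outer membrane and the only gene of the 12 with a ratio above 0, had 14711 counts in the knockdown library and 13163 in the control (0.05, 0.02 to 0.09). The 4 measured genes for nucleotide and phosphate carriers and the ATP synthase inhibitor gave 0 calls in either direction at 1.2-fold and a median of -0.11. So few genes can hardly be told from those shares. Slc25a4, the ADP/ATP carrier of muscle, had 24223 and 26218 counts (0.01, -0.02 to 0.03), and Slc25a5, its widely expressed relative, had 23331 and 21373 (-0.23, -0.26 to -0.21). Slc25a3, the phosphate carrier, had 32896 and 30314 counts (-0.22, -0.25 to -0.20). Most of the import and outer membrane genes were thus lower, by differing amounts, while the carriers and the inhibitor were divided, with 2 ratios below 0 and 2 above. The plot of subunit classes and lists shows the spread of each.

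**Figure D5:**
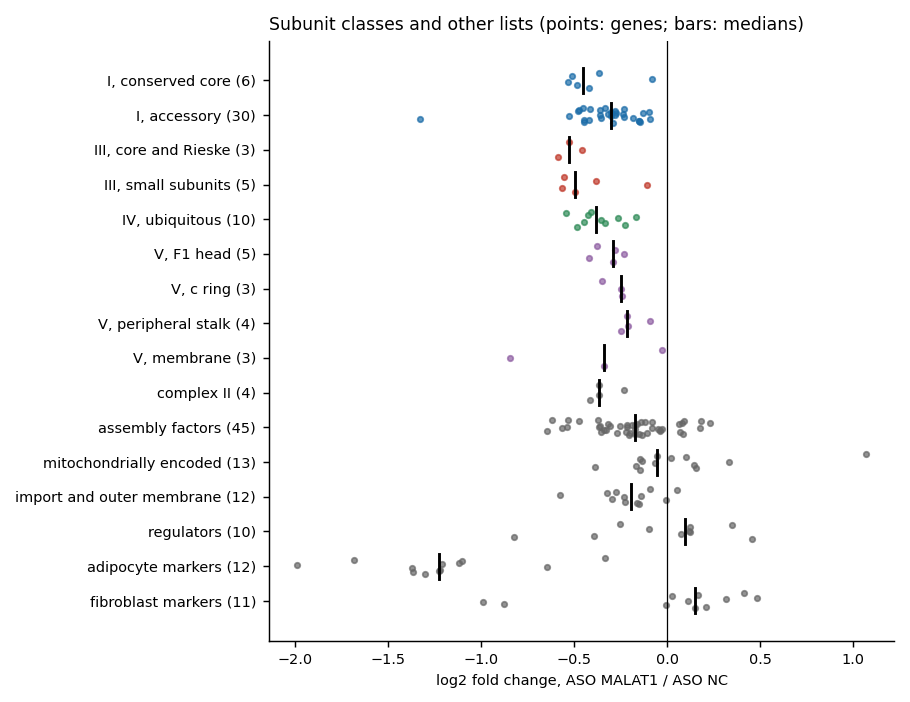
Log2 fold change (ASO MALAT1 over ASO NC, x axis) of single genes (points) in subunit classes of the complexes and in other lists, with the number of genes in brackets and medians as bars. The core subunits of complex I reported here (-0.45) and complex III (-0.53) lie below the mitochondrially encoded subunits (-0.06) and well above the mature adipocyte markers (-1.23), and the tissue-restricted isoforms of complex IV are not drawn.

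Regulators of respiratory chain genes moved in both directions, with 2 of 10 called lower and 2 higher at 1.2-fold and a median of 0.09. The shares over all tested genes were 13.9% and 10.9%, so these counts are near the background. Gabpa, whose motif was searched above, had 4744 and 5567 counts (0.12, 0.07 to 0.18), short of 1.2-fold, and Nrf1, chosen here because its motif was searched, had 1784 and 2019 (0.07, -0.02 to 0.16). Yy1, whose motif was searched as well, had 2974 and 3489 counts (0.12, 0.05 to 0.19), also short of 1.2-fold. Nrip1, a co-repressor of oxidative genes in fat, had 3554 and 3206 counts (-0.26, -0.32 to -0.19), just short of 1.2-fold. Pprc1, a coactivator of the same family as PGC-1, was called higher with 3237 and 4442 counts (0.35, 0.28 to 0.42). Esrra, the oestrogen-related receptor alpha, for whose family a motif was searched too, fell with 3244 and 2663 counts (-0.39, -0.47 to -0.32). The coactivators Ppargc1b and Ppargc1a, named after their values were seen, were called in opposite directions, with 2770 and 1685 counts (-0.82, -0.91 to -0.74) and 107 and 158 counts (0.45, 0.09 to 0.82).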

How the data were processed

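Total RNA of the 2 samples was depleted of rRNA and made into libraries that keep the strand. The authors deposited raw counts of reads per gene, with no normalization. The submitters' processing notes name HISAT2 and GRCm38. The counting tool, annotation, strand setting and treatment of multiply mapping reads are not given in the sources used here. The members and the lists were chosen with earlier results of these data known.

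Each column was matched to a sample by its name. Genes with 10 or more counts in all were tested. TMM factors from edgeR were 0.992 (ASO NC) and 1.01 (ASO MALAT1), and log2 fold changes used a prior count of 0.5 (edgeR 4.0.16, R 4.3.3). Without replicates neither the quasi-likelihood test nor DESeq2 could be fitted, so a two-sided exact binomial test was used (scipy 1.17.1, Python 3.11.15), adjusted by Benjamini-Hochberg over all tested genes. Intervals are 95% Clopper-Pearson or exact Poisson limits, and a count of 0 allows up to 3 counts, 0.0520 CPM (ASO NC) or 0.0483 CPM (ASO MALAT1). Both cover counting error only, and reads without molecular identifiers are not independent molecules. The test was tested on simulated data before use. Lengths, exon overlaps and copies (BLAST+ 2.17.0) came from GENCODE M21 transcripts, which held 80 of the 81 members. Lengths are those of the longest transcript, which understates levels per kilobase where a shorter form is used. No promoter on chromosome 18 was chosen for printing. Exons of 29 tested members overlap another gene on either strand, and strand use in counting is unknown. Every core, F1 and c-ring subunit, every restricted isoform, and the 3 lowest and 3 highest members of each complex with a mean of at least 100 counts were to be described, with up to 4 genes of most counts in other lists, of which not all are reported. Of the complex I members, 1 is not reported singly here and enters only counts and sums over its complex and over all members. The alternatives were other scalings (library totals, DESeq2 1.42.0 size factors, upper quartile), other count filters, a prior count of 2, a 1.5-fold threshold, leaving out restricted isoforms or members with copies, and edgeR's exact test with a preset coefficient of variation.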

Additional observations from a re-analysis of the deposited data

How the results depend on the processing

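No paired analysis was possible because each group had 1 library, and for the same reason no library could be left out in turn. Of 99 recomputed values, 87 moved by less than the limits set, 12 moved further and 0 changed direction. Many of these values are numbers of members called, which have no direction to change, and the number called higher was 0 under every setting. The 45 members called at 1.2-fold lower with library totals counted as moving by less than the limit. The log2 ratio of summed member counts was -0.34 with library totals and -0.35 with upper-quartile factors. The median of complex IV was -0.36 without its tissue-restricted isoforms. The number of members called at 1.2-fold lower was 50, but 4 at a 1.5-fold threshold, and 3, 1 and 0 with edgeR's exact test at a preset coefficient of variation of 0.1, 0.2 and 0.4. Of the 2 members called at 2-fold lower, 1 was left with at least 10 counts required in each library and 1 at a coefficient of variation of 0.2, and 0 at 0.4, at a mean of at least 1000 counts, or without restricted isoforms. The median of all tested genes lay between -0.003 and 0.02 under the scalings, and library totals ended the 1.2-fold call of 5 members (Atp5d, Cox6c, Ndufb11, Ndufb5 and Ndufb8). No value here measures how far cultures of one condition differ, and the calls on scarce isoforms rest on few reads.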

Other observations

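A few members had far fewer counts than the rest of their complex, in both libraries alike. Uqcrc1 had 95 counts in the control library and 68 in the knockdown library, while the other core protein of complex III, Uqcrc2, had 11232 and 8805. Ndufa7, the complex I gene that was not tested, had 4 and 1 counts. Genes beside them in the RefSeq order were low in part. Near Uqcrc1, Celsr3 had 1 count in each library, Tmem89 had 0 and Slc26a6 had 120 and 83. On the opposite side, Ucn2 had 18 and 19, whereas Col7a1 had 1078 and 926, Pfkfb4 542 and 616, and Shisa5 14767 and 14830. Beside Ndufa7, Rps28, a ribosomal protein gene that cells use throughout, had 10 counts in each library and Cd320 had 5 and 2. Beyond Rps28, Kank3 had 0 and 2 counts and Angptl4 0 and 1, while Rab11b, farther along, had 2711 and 2037. Cox7c (259 and 191 counts), Ndufb4 (199 and 196) and Atp5g2 (301 and 273) were likewise scarce for subunits used in most tissues, but each lay next to a gene with over 1000 counts, such as Rasa1 with 3831 and 4943, Fstl1 with 122553 and 170749, and Atf7 with 14672 and 15450. These genes were chosen after their values were seen. Their levels are those of the deposited counts and depend on how reads were assigned to genes, which the sources used here do not give, so a low count of Ndufa7, Uqcrc1, Rps28 or Cox7c need not be a low transcript level.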
